A study of Mus musculus with 23 samples.

Results

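The genes described here are 9 regulators at the entrance of the integrated stress response: the 4 kinases of translation factor eIF2alpha (Eif2ak1, Eif2ak2, Eif2ak3 and Eif2ak4), the 2 subunits that direct its phosphatase (Ppp1r15a and Ppp1r15b), the cap-binding repressors Eif4ebp1 and Eif4ebp2, and Ddit4, an inhibitor of mTORC1 signalling. They were taken by gene symbol for these roles, by a rule that uses no measured value, though with earlier results of these data known. All 9 were found among the 38924 genes of every library, and 8 of the 9 passed the filter on low counts. Eif4ebp1 did not pass it in any comparison.

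The libraries hold RNA that came down with an anti-haemagglutinin antibody from spinal cords of mice aged 2 weeks. In the RiboTag design, Cre recombinase switches on a haemagglutinin-tagged ribosomal protein, Rpl22, so that ribosomes of the Cre-expressing cells can be precipitated with the mRNA on them. ChAT-Cre acts in cholinergic cells, which include motor neurons but also other cholinergic cells of the cord. Each of the 23 libraries came from mice carrying 1 copy of the tag allele (Rpl+/-) on the mixed background B6.CgxB6.129. The 5 wild-type Cre libraries carried ChAT-Cre (Chat+/-) and Gars+/+. The 6 mutant Cre libraries carried ChAT-Cre and GarsC201R/+. Gars encodes glycyl-tRNA synthetase, and dominant alleles of it cause peripheral neuropathy. The study places the age sampled before disease onset. The 6 wild-type no-Cre and 6 mutant no-Cre libraries had the same Gars genotypes without Cre (Chat+/+), so no tagged ribosomes are made and the precipitate is background RNA of the whole cord. The study asked how the mutation changes the mRNA on motor neuron ribosomes before onset.

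The 4 kinases each sense a different stress and phosphorylate the same site of eIF2alpha. HRI (Eif2ak1) responds to haem shortage and mitochondrial stress, PKR (Eif2ak2) to double-stranded RNA, PERK (Eif2ak3) to unfolded protein in the endoplasmic reticulum, and GCN2 (Eif2ak4) to uncharged tRNA and stalled ribosomes. Phosphorylated eIF2alpha slows general initiation while it favours translation of a few mRNAs, among them that of the transcription factor ATF4. GADD34 (Ppp1r15a), which is itself induced by stress, and CReP (Ppp1r15b), which is constitutive, bring protein phosphatase 1 to eIF2alpha and undo the signal. The 4E-BP proteins form a second brake: they hold the cap-binding protein eIF4E apart from eIF4G until mTORC1 phosphorylates them. Ddit4 (REDD1) restrains mTORC1 through the TSC complex. Activation of the kinases is a protein modification, which mRNA levels do not measure.

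Libraries held between 9031654 and 19671869 expected counts, but ribosomal RNA models took most of them, and 594381 to 6237428 counts remained for other genes. In mutant Cre libraries 2927104 to 6237428 counts remained. In wild-type Cre replicate 2 it was 4466013, and in the other wild-type Cre libraries 1213587 to 2825067, below every mutant Cre library. Depth thus goes with genotype among the tagged libraries, and its part in the genotype comparison was not tested. Values are given below in CPM (counts scaled to a common library size) after TMM scaling, a correction for differences in library composition. Chat, the marker of the intended cells, averaged 56.1 CPM (SD 11.8, n = 5) in the tagged wild-type and 33.7 CPM (SD 13.7, n = 6) in the tagged mutant precipitates. Without Cre it averaged 2.25 CPM (SD 1.88) in wild type and 3.11 CPM (SD 2.64) in mutants, with n = 6 each. The summed level of 15 motor neuron markers was 2330 to 4360 CPM in wild-type Cre and 1060 to 3070 CPM in mutant Cre libraries, and 269 to 1620 CPM without Cre. The summed level of 10 oligodendrocyte markers was 552 to 3080 CPM in wild-type Cre and 812 to 7170 CPM in mutant Cre libraries, where 0 of the 10 were at 0 in any library, and 7310 to 16900 CPM without Cre. Wild-type Cre replicate 2 and mutant Cre replicates 4 and 6 were highest in these markers within their groups. In such bulk precipitates, fewer cells of a type and less RNA per cell cannot be told apart. Whether each library came from a separate animal is not stated in the labels, and the p-values cover only library-to-library spread, which may be technical.

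On tagged ribosomes the most abundant of the 9 mRNAs per unit of length were those of a 4E-BP and of HRI. In wild-type Cre libraries the level divided by effective mRNA length was 5.78 ± 1.07 CPM per kilobase (SD, n = 5) for Eif4ebp2, 4.92 ± 1.56 for Eif2ak1, 3.01 ± 0.846 for Ddit4 and 1.57 ± 0.949 for Ppp1r15a. Eif2ak4 (1.04 ± 0.478), Ppp1r15b (1.0 ± 0.260) and Eif2ak3 (0.960 ± 0.412) came next on the same scale and lay within 1 SD of each other. Eif2ak2 (0.303 ± 0.132) and Eif4ebp1 (0.162 ± 0.193) were lowest. Neighbours in this order that differed by more than the larger SD were Eif2ak1 over Ddit4, Ddit4 over Ppp1r15a and Eif2ak3 over Eif2ak2. In mutant Cre libraries the same 4 genes led, at 6.77 ± 0.999 (n = 6), 5.28 ± 1.33, 4.67 ± 0.883 and 2.97 ± 1.21 CPM per kilobase, while Ppp1r15b (1.75 ± 0.306) stood above Eif2ak3 (1.11 ± 0.229) and Eif4ebp1 (0.604 ± 0.235) above Eif2ak4 (0.480 ± 0.0773) and Eif2ak2 (0.447 ± 0.0850). In mutants the steps from Eif2ak1 to Ddit4, from Eif4ebp1 to Eif2ak4 and from Eif2ak4 to Eif2ak2 were within the larger SD. The other steps exceeded it. This leading order is not particular to tagged ribosomes. The same 4 genes led in the same order in wild-type no-Cre libraries, at 8.35 ± 1.80 (n = 6), 4.86 ± 0.911, 4.52 ± 2.40 and 3.66 ± 3.18. In mutant no-Cre libraries Ppp1r15a had the highest mean, 12.4 ± 20.4, and Eif4ebp2 the next, 8.99 ± 5.53. The lengths that RSEM assigned differed between libraries, from 425.74 to 2449.02 bases for Ppp1r15a and from 1899.91 to 5222.76 for Eif2ak4. Their medians in tagged wild type and tagged mutants were 1329 and 931 bases for Ppp1r15a and 2648 and 4274 for Eif2ak4. Per-length values of these genes carry that uncertainty, and their differences between genotypes cannot be told apart from those of length.

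HRI held the highest mean share of the eIF2alpha kinase mRNAs in all 4 groups, tagged and background. By the deposited TPM, Eif2ak1 made up 67.1% ± 8.3 (SD, n = 5) of the summed level of the 4 kinases in tagged wild type and 71.5% ± 5.4 (n = 6) in tagged mutants, with a range over both groups of 58.2% to 79.4%. Without Cre the share of Eif2ak1 was 55.7% ± 8.4 in wild type and 47.9% ± 12.6 in mutants (n = 6 each). With Cre, Eif2ak3 held 14.0% ± 7.6 and 15.2% ± 2.2 of the kinase TPM in tagged wild type and tagged mutants. Eif2ak4 held 14.8% ± 6.8 and 6.8% ± 1.6 in the same groups. Its assigned length had a median of 2648 and 4274 bases there, so the drop in share cannot be told apart from the change in length. In CPM, Eif2ak4 averaged 2.48 (SD 1.14) and 1.99 (SD 0.405). Eif2ak2 held 4.1% ± 1.3 and 6.5% ± 2.4 with Cre, against 16.2% ± 2.1 in wild-type no-Cre and 25.8% ± 15.6 in mutant no-Cre libraries (n = 6 each). Part of the Eif2ak1 locus lies across the opposite-strand genes Aimp2 and Ankrd61. The sources used here do not state whether counting used strand, so reads from the shared 1548 and 6945 bases may not be told apart.

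**Figure D1:**
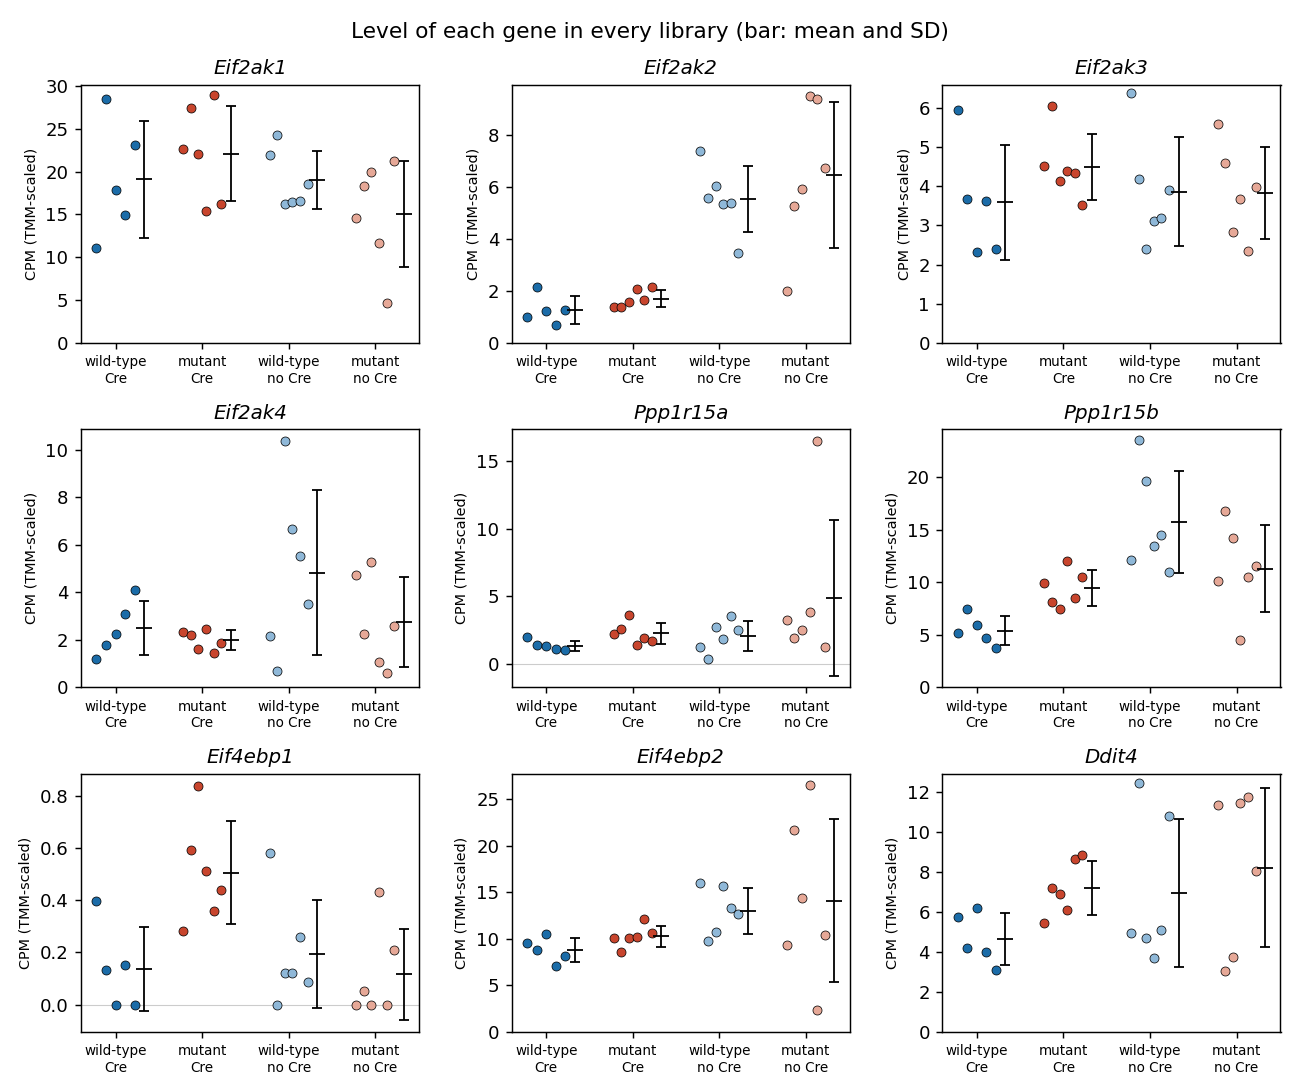
Level of each of the 9 genes in every library, in CPM on linear axes, for the 4 groups. Each point is 1 library, and the black dash and bar are the mean and SD. Ppp1r15b lies between 3.75 and 7.5 CPM in wild-type Cre and between 7.44 and 12 CPM in mutant Cre libraries, Eif2ak2 is lower with Cre than in most no-Cre libraries, and 1 mutant no-Cre library stands at 16.4 CPM for Ppp1r15a.

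Whether the Gars mutation changes the mRNA of these regulators on tagged ribosomes was answered by mutant Cre against wild-type Cre. The phosphatase subunits Ppp1r15b and Ppp1r15a and the mTORC1 inhibitor Ddit4 had the highest fold changes of the 8 tested genes, 1.74-fold, 1.66-fold and 1.55-fold, and the 4 kinases and Eif4ebp2 lay between 0.794-fold and 1.33-fold. By edgeR's quasi-likelihood test with Benjamini-Hochberg adjustment over 12399 genes, 0 of the 8 passed an adjusted p of 0.05, where 0.331% of all genes tested did (41 genes, 29 higher and 12 lower, or 17 higher and 0 lower under scaling by library totals alone). At an unadjusted p under 0.05 there were 3 of 8, all higher in mutants, beside 17.0% of all genes tested in either direction and 8.16% higher in mutants. DESeq2 called 1 of 8, Ppp1r15b, and 413 genes in all, 122 higher and 291 lower. The median log2 fold change of the 8 was 0.38, beside 0.06 for all genes tested. Of the 8, 0 had groups that did not overlap in CPM, where 2.27% of genes tested had.

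**Figure D2:**
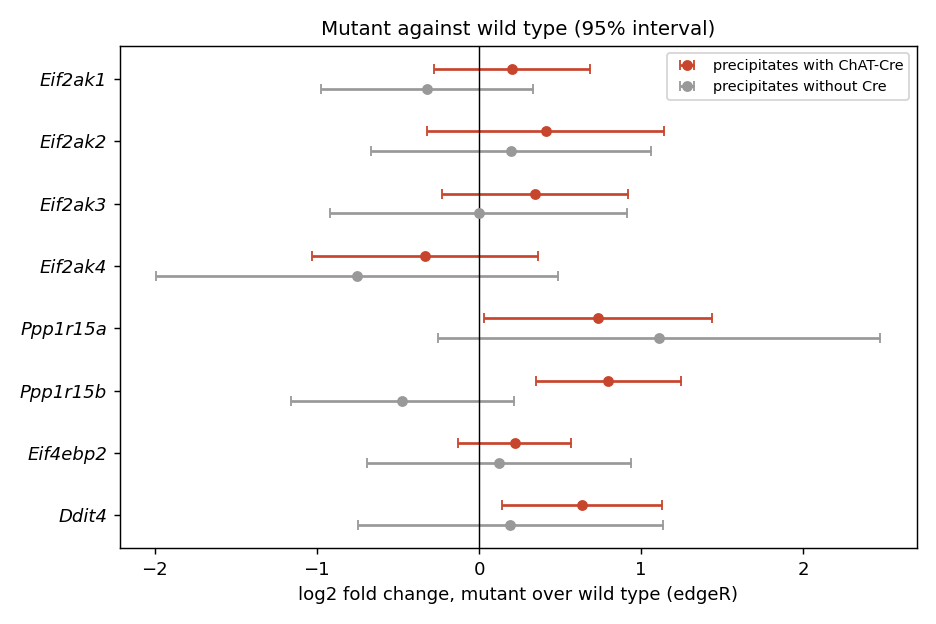
Log2 fold change of mutant over wild type for the 8 tested genes, with Cre (red) and without Cre (grey), as fitted by edgeR. Points are estimates and bars are 95% intervals. With Cre, the intervals of Ppp1r15a, Ppp1r15b and Ddit4 lie above 0 and the other 5 include 0, and all 8 intervals without Cre include 0.

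Ppp1r15b, the gene of the constitutive phosphatase subunit CReP (chr1:133131143-133139783, GRCm38, plus strand), was at 5.15, 7.5, 5.95, 4.68 and 3.75 CPM in wild-type Cre replicates 1 to 5. It was at 9.99, 8.10, 7.44, 12, 8.5 and 10.5 CPM in mutant Cre replicates 1 to 6. All mutant libraries but 1 lay above every wild-type library, and mutant replicate 3 and wild-type replicate 2 overlapped narrowly. The log2 fold change was 0.80 (SE 0.209, 95% interval 0.351 to 1.244) and the adjusted p was 0.1104 by edgeR. DESeq2 gave 0.77 with an adjusted p of 0.03225. Leaving out wild-type Cre replicate 2 gave 0.92 with an adjusted p of 0.024 by edgeR, and leaving out that library with those of title number 18405 gave 0.76 with an adjusted p of 0.03746. Over all alternatives the adjusted p ranged from 0.024 to 0.4708 and the log2 fold change from 0.58 to 1.42.

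Within both tagged groups, Ppp1r15b was highest in the libraries with the most oligodendrocyte RNA, and the part of that RNA in the genotype difference was not tested. Within wild-type Cre it was highest in replicate 2, where the summed oligodendrocyte markers reached 3080 CPM, and within mutant Cre in replicates 4 and 6, where they reached 5224 and 7165 CPM. In mutant replicates 2 and 3, with marker sums of 822 and 812 CPM, Ppp1r15b was at 8.10 and 7.44 CPM. In wild-type replicates 1, 3, 4 and 5, with sums of 552 to 780 CPM, it was at 3.75 to 5.95 CPM, below both mutant libraries. These libraries are not matched in other markers. Sums for other neurons were 47.3 and 50.7 CPM in the mutant libraries against 31.25 to 36.3 CPM. Those for motor neurons were 3072 and 2883 CPM against 3572 to 4357 CPM. Those for astrocytes were 268.7 and 269.1 CPM against 290.8 to 334.7 CPM. The title number, which opens each sample title and whose meaning the labels do not give, was shared by both genotypes for 2 numbers. The log2 ratio of mean CPM was 0.9 within number 20302 and 0.33 within number 20401, with 2 libraries of each genotype in each.

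Ppp1r15a (chr7:45522916-45526268, minus strand) encodes GADD34, the stress-inducible subunit, and was a low-count gene with 9 to 33 counts per wild-type Cre library and 28 to 80 per mutant Cre library. It was at 1.98, 1.45, 1.32, 1.13 and 1.02 CPM in wild-type Cre and at 2.23, 2.64, 3.67, 1.39, 1.96 and 1.76 CPM in mutant Cre libraries. The mutant libraries with the 3 highest values exceeded all wild-type libraries, and the other 3 overlapped with them. The log2 fold change was 0.73 (SE 0.328, 95% interval 0.032 to 1.434) and the adjusted p was 0.2786 by edgeR. The ratio had the same direction within both title numbers, 1.05 in 20302 and 0.71 in 20401 on the log2 scale.

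Ppp1r15a is a known stress-responsive member of the set and, of the 7 genes searched, the only one with a match to any motif. The bases before its start are shown for these reasons. Those of Ddit4, which had a similar fold change in mutants, and of Eif2ak2, the kinase that differed between precipitates with and without Cre, are shown for comparison. Windows are the 250 bases before the start in RefSeq (GRCm38.p6), 5′ to 3′, with matches in capitals. They lie at chr7:45526269-45526518, chr10:59951771-59952020 and chr17:78882573-78882822, all on the minus strand. In the RefSeq table were 7 of the 9 genes, and Ppp1r15b and Eif4ebp1 were not and could not be searched.
Ppp1r15a: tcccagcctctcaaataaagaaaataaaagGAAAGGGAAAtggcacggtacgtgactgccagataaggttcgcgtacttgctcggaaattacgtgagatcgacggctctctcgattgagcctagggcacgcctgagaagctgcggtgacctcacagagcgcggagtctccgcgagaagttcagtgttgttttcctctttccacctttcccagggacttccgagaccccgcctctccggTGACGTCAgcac
Ddit4: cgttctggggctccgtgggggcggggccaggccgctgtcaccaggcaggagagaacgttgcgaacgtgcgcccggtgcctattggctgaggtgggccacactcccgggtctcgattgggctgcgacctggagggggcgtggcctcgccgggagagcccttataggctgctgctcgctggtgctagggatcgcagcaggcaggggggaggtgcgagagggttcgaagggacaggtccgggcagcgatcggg
Eif2ak2: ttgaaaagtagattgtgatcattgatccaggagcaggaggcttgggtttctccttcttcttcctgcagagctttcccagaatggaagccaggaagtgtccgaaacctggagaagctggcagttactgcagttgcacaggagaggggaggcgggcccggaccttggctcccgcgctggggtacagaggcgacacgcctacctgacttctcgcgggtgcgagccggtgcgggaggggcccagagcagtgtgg

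Both strands were searched for 4 motifs. The cyclic AMP response element TGACGTCA stood 12 to 5 bases before the Ppp1r15a start and was found in 1.55% of 32851 windows of the same length. The interferon-type pattern, GAAA followed after any 2 bases by GAAA, stood 220 to 211 bases before it and was found in 2.98% of windows. The ATF4 and C/EBP composite TGATGNAA, found in 3.45% of windows, and the endoplasmic reticulum stress element, CCAAT followed after any 9 bases by CCACG, found in 0.113%, had no match in any window of the 7 genes. These are matches of letters only, and the motifs do not overlap each other in the Ppp1r15a window.

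Ddit4 (REDD1, chr10:59949669-59951834, minus strand) was at 5.75, 4.16, 6.20, 4.00 and 3.07 CPM in wild-type Cre and at 5.43, 7.18, 6.91, 6.11, 8.63 and 8.84 CPM in mutant Cre libraries. Of the mutant libraries, 4 of 6 lay above all wild-type libraries and the other 2 within the wild-type range. The log2 fold change was 0.63 (SE 0.231, 95% interval 0.141 to 1.128) and the adjusted p was 0.2143 by edgeR, ranging from 0.1425 to 0.6788 over the alternatives. Within title numbers the log2 ratio was 0.44 in 20302 and 0.65 in 20401.

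Of the 4E-BP genes, Eif4ebp1 was close to the limit of detection and Eif4ebp2 carried most of their summed level. Eif4ebp1 (chr8:27260329-27276674, plus strand) had 2, 3, 0, 2 and 0 counts in wild-type Cre and 9, 18, 16, 14, 11 and 7 counts in mutant Cre libraries. Every mutant count was above every wild-type count, but after scaling to CPM the groups overlapped, at 0.0 to 0.396 CPM in wild-type and 0.283 to 0.838 CPM in mutant libraries. Summed over libraries, 7 counts stood against 75, a ratio of 4.28 after scaling (95% interval 1.98 to 11, which covers counting error only). With no filter on low counts, edgeR gave a log2 fold change of 2.06 (SE 0.889, 95% interval 0.216 to 3.898) with an adjusted p of 0.2992. By the deposited TPM, Eif4ebp1 made up 2.7% ± 3.0 (n = 5) of the summed Eif4ebp1 and Eif4ebp2 level in tagged wild type and 8.4% ± 3.7 (n = 6) in tagged mutants. Eif4ebp2 (chr10:61428491-61452661, minus strand) was at 7.10 to 10.5 CPM (median 8.77) in wild-type Cre and 8.56 to 12.1 CPM (median 10.1) in mutant Cre libraries. Its log2 fold change of 0.22 had a 95% interval of -0.129 to 0.569 and an adjusted p of 0.4868 by edgeR.

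The mRNAs of the 4 sensors did not pass the test between genotypes on tagged ribosomes. Eif2ak1 (chr5:143817788-143904251, plus strand) was at 11.1 to 28.5 CPM in wild-type Cre and 15.4 to 28.9 CPM in mutant Cre libraries, with a log2 fold change of 0.20 (95% interval -0.279 to 0.684). Eif2ak4 (chr2:118388618-118475234, plus strand), the sensor of uncharged tRNA and stalled ribosomes, was the only one of the 8 with a fitted fold change below 1, at 1.19, 1.80, 2.23, 3.10 and 4.09 CPM in wild-type Cre and 2.32, 2.21, 1.62, 2.45, 1.44 and 1.88 CPM in mutant Cre libraries. All 6 mutant values of Eif2ak4 lay inside the wild-type range. Its log2 fold change was -0.33 (95% interval -1.029 to 0.363, adjusted p = 0.5997 by edgeR), and it became 0.52 under scaling by library totals alone, a scaling that moved the median of all genes to 0.79. Eif2ak3 (chr6:70844515-70905245, plus strand) was at 2.31 to 5.95 CPM in wild-type Cre and 3.51 to 6.06 CPM in mutant Cre libraries, with a log2 fold change of 0.34 (95% interval -0.229 to 0.916). Within title number 20302 its log2 ratio was 1.17 and within 20401 it was -0.18. Eif2ak3 lies 15.8 Mb from Gars on chromosome 6. Eif2ak2 (chr17:78852564-78882573, minus strand) was at 0.680 to 2.15 CPM in wild-type Cre and 1.38 to 2.13 CPM in mutant Cre libraries, with a log2 fold change of 0.41 (95% interval -0.319 to 1.138). These intervals reach from -1.029 (Eif2ak4) to 1.138 (Eif2ak2) on the log2 scale, so the absence of a call does not show equal levels.

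Without Cre, the same comparison asks whether the genotype difference is present in background RNA of the whole cord, which includes RNA of cholinergic cells. None of the 8 tested genes passed the test by edgeR, 0 had an unadjusted p under 0.05 and DESeq2 called 0, beside 0.0% of 12588 genes called by edgeR, of which 565 had an unadjusted p under 0.05. Ppp1r15b was at 12.2, 23.6, 19.6, 13.5, 14.5 and 11 CPM in wild-type no-Cre and 10.2, 16.8, 14.2, 4.52, 10.6 and 11.6 CPM in mutant no-Cre libraries. Here the mutant libraries were on average lower, with 3 of 6 below all wild-type libraries and a log2 fold change of -0.47 (95% interval -1.161 to 0.218, adjusted p = 0.9507 by edgeR). Ppp1r15a had the highest fold change of the 8 here, in the same direction as with Cre. It was at 1.30, 0.419, 2.77, 1.83, 3.53 and 2.55 CPM in wild-type no-Cre and 3.30, 1.97, 2.57, 3.88, 16.4 and 1.26 CPM in mutant no-Cre libraries, which overlapped. Its log2 fold change was 1.11 (95% interval -0.25 to 2.474, adjusted p = 0.9507 by edgeR), and 0.28 without mutant no-Cre replicate 5. Ddit4 spread from 3.71 to 12.4 CPM in wild-type and from 3.03 to 11.7 CPM in mutant no-Cre libraries. Eif4ebp1 had 17 counts over the 6 wild-type and 6 over the 6 mutant no-Cre libraries.

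The difference between the genotype effects with and without Cre was tested in a fit over all 23 libraries. Ppp1r15b had the highest difference of the 8 genes, 1.25 on the log2 scale (SE 0.405, 95% interval 0.421 to 2.078) with an adjusted p of 0.3365 by edgeR, which ranged from 0.1232 to 0.5717 over the alternatives. Of the 8 genes 0 passed by edgeR, 1 had an unadjusted p under 0.05 and DESeq2 called 0, beside 0.0207% of 14468 genes called by edgeR (3 genes). For Ddit4 the difference was 0.43 (95% interval -0.649 to 1.505) and for Ppp1r15a -0.35 (95% interval -1.93 to 1.23).

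Which of these mRNAs were higher or lower on tagged ribosomes than in the background precipitate was answered by Cre against no Cre within each genotype. PKR (Eif2ak2) was lower with Cre in both genotypes and CReP (Ppp1r15b) in wild type, while the other genes did not pass the test. In wild type, 2 of 8 were called, both lower with Cre, beside 45.9% of 12485 genes called in either direction and 25.9% called lower by edgeR. These 2 were also the genes whose groups did not overlap, beside 28.1% of genes tested. In mutants, 1 of 8 was called, lower with Cre, beside 33.3% of 12741 genes called and 19.2% called lower (1802 higher and 2446 lower, or 3266 and 275 with library totals only). The counts are near those shares, so they do not set the 9 genes apart from the transcriptome.

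Eif2ak2 was at 0.991, 2.15, 1.24, 0.680 and 1.25 CPM in wild-type Cre and at 7.39, 5.58, 6.02, 5.34, 5.36 and 3.47 CPM in wild-type no-Cre libraries. Every tagged library was below every background library, and the log2 fold change was -2.02 (SE 0.43, adjusted p = 0.001253 by edgeR), a level of 0.246-fold. In mutants it was at 1.38, 1.38, 1.57, 2.09, 1.64 and 2.13 CPM with Cre and at 2.01, 5.25, 5.93, 9.48, 9.39 and 6.71 CPM without. Only mutant no-Cre replicate 1 fell within the range of the tagged libraries, and the log2 fold change was -1.96 (SE 0.37, adjusted p = 0.0008192 by edgeR). Both calls were lost under scaling by library totals alone, at -1.67 in wild type and -0.63 in mutants. In the fit for the title number, which left 1 mutant no-Cre library against 2 with Cre, the value in mutants was -1.30 with an adjusted p of 0.0527 by edgeR, and so small a fit says little about the call.

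Ppp1r15b fell in wild type by 1.45 on the log2 scale with Cre (SE 0.302, adjusted p = 0.001074 by edgeR), to 0.366-fold, with its 5 tagged libraries at 3.75 to 7.5 CPM all below the 6 background libraries at 11 to 23.6 CPM. Its call was lost with library totals only, at -1.16. In mutants the difference was -0.34 (95% interval -0.924 to 0.253, adjusted p = 0.3724 by edgeR), with tagged libraries at 7.44 to 12 CPM inside the background range of 4.52 to 16.8 CPM. That the gene passed in 1 genotype and not in the other is the same contrast as the difference of genotype effects above, which did not pass. The comparisons share libraries, so these values are not independent.

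**Figure D3:**
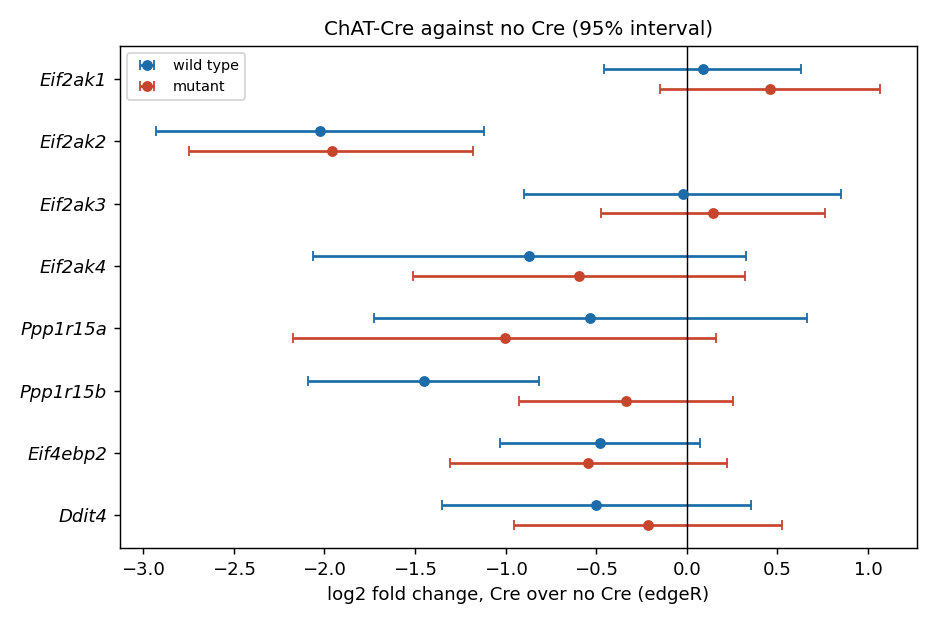
Log2 fold change of Cre over no Cre for the 8 tested genes in wild type (blue) and mutants (red), as fitted by edgeR. Points are estimates and bars are 95% intervals. Eif2ak2 lies near -2.02 and -1.96 in the 2 genotypes, and Ppp1r15b at -1.45 in wild type and -0.34 in mutants.

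The other genes did not pass this test, and their intervals show the differences that remain possible. Ppp1r15a gave -0.53 (95% interval -1.728 to 0.663) in wild type and -1.004 (-2.172 to 0.163) in mutants on the log2 scale, the latter -0.04 without mutant no-Cre replicate 5. Eif2ak4 gave -0.87 (-2.061 to 0.326) and -0.595 (-1.511 to 0.321). Eif2ak1 gave 0.09 (95% interval -0.454 to 0.633) in wild type and 0.46 (-0.149 to 1.068) in mutants on the log2 scale, and Eif2ak3 gave -0.02 (-0.897 to 0.851) and 0.15 (-0.472 to 0.765). Eif4ebp2 gave -0.48 (-1.031 to 0.073) and -0.54 (-1.307 to 0.22), and Ddit4 gave -0.50 (-1.351 to 0.354) and -0.21 (-0.953 to 0.526). Eif2ak4 varied from 0.698 to 10.4 CPM among wild-type no-Cre libraries and from 0.587 to 5.26 CPM among mutant no-Cre libraries, the widest relative spread of the kinases there. Eif4ebp1 counts in mutants were 75 with Cre against 6 without, a ratio of 5.64 (95% interval 2.47 to 15.9, counting error only), and 7 against 17 in wild type, a ratio of 0.647 (0.227 to 1.64).

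**Figure D4:**
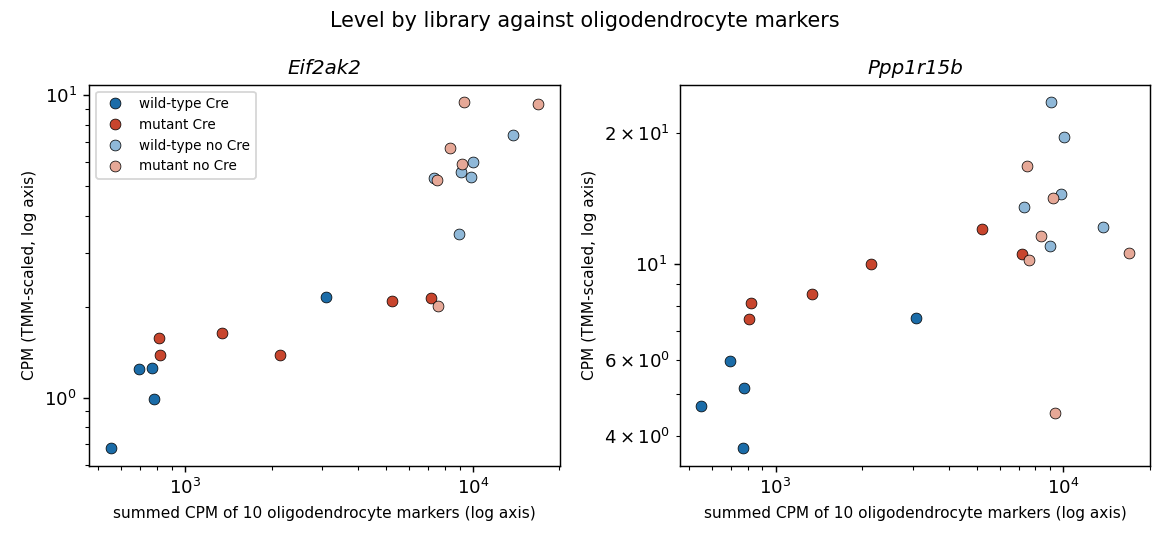
Level of Eif2ak2 (left) and Ppp1r15b (right) in each of the 23 libraries against the summed level of 10 oligodendrocyte markers, both in CPM on log axes. Each point is 1 library coloured by group. The no-Cre libraries have marker sums of 7310 CPM or more and hold the highest levels of both genes. In the left panel mutant Cre replicates 4 and 6, at 5224 and 7165 CPM, are at 2.09 and 2.13 CPM of Eif2ak2. Mutant no-Cre replicate 1, at 7579 CPM, is at 2.01 CPM.

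The oligodendrocyte markers move with Cre beside both genes, and their part in the differences was not tested. Mutant Cre replicate 6 had a marker sum of 7165 CPM, near the 7310 CPM of the lowest wild-type no-Cre library. It held Eif2ak2 at 2.13 CPM where that library had 5.34 CPM. Mutant no-Cre replicates 1 and 2, with sums of 7579 and 7497 CPM, held Eif2ak2 at 2.01 and 5.25 CPM. For Ppp1r15b, mutant Cre replicate 6 and that wild-type library were closer, at 10.5 and 13.5 CPM. The mutant no-Cre replicates 1 and 2 held Ppp1r15b at 10.2 and 16.8 CPM. Without wild-type Cre replicate 2 and the libraries of title number 18405, the log2 fold change of Eif2ak2 was -2.28 in wild type and -2.06 in mutants, and that of Ppp1r15b in wild type was -1.56, with adjusted p-values of 0.001148, 0.004587 and 0.001263 by edgeR. Of 20 interferon-induced genes, the class to which Eif2ak2 belongs, 9 were tested in wild type. With Cre, 3 were called lower and 1 higher by edgeR, beside 25.9% of all genes called lower and 20.0% called higher. So few genes do not set the class apart from those shares.

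Among genes downstream of these regulators, 14 of 28 tested genes of the ATF4 programme rose in mutant Cre libraries, and 0 genes of the machinery that the regulators act on were called. The lists were put together with results of these data already known, so their counts are descriptions. Of 30 genes of the ATF4 programme, 28 were tested between genotypes with Cre, and 14 were called higher and 0 lower by edgeR (8 and 0 with library totals only, 23 and 0 without wild-type Cre replicate 2 and the title number 18405 libraries), with a median log2 fold change of 1.75 beside 0.06 for all genes. Among the 14, Fgf21, Nupr1, Adm2 and Gdf15 averaged 0.0558, 0.0589, 0.0 and 0.0 CPM in wild-type Cre libraries. They passed the filter on low counts only through the mutant libraries, so their direction was fixed in advance. Their calls add no support to the count. Without Cre, 20 genes of the list were tested and 0 were called by edgeR. The shares of all genes called were 0.331% with Cre and 0.0% without, so the 0 does not set the list apart. In the difference of the genotype effects, 0 of 29 were called by edgeR, beside 0.0207% of all genes. Ddit3, which encodes the transcription factor CHOP, rose by 2.41 with Cre (SE 0.439, adjusted p = 0.02586 by edgeR). Its 5, 16, 6, 17 and 21 counts in wild-type Cre were too few to pass the filter without the mutant libraries. The call of Ddit3 therefore adds no support to the count either. The rest of the 14 were not examined for this, and the median of 1.75 includes all these genes. Atf4 itself was at 16.1 to 28.2 CPM in wild-type Cre and 36.0 to 56.7 CPM in mutant Cre libraries, without overlap, with a log2 fold change of 0.86 and an adjusted p of 0.06784 by edgeR. Its adjusted p was 0.006526 without wild-type Cre replicate 2 and the 18405 libraries, and 0.1249 with library totals only, both by edgeR. DESeq2 called 20 genes of the list higher and 0 lower, Atf4 among them, and also Fgf21, Nupr1 and Ddit3. Psat1 and Psph, enzymes of serine synthesis, rose by 1.98 and 2.82, and Slc3a2, an amino acid transporter subunit, by 0.91. Among the 14 that did not pass by edgeR were Asns, the asparagine synthetase gene, at 0.16 (adjusted p = 0.7063), and Cebpb at -0.34 (adjusted p = 0.721). Ddit3, Atf4, Psat1, Psph and Slc3a2 are not among the 9 regulators, and their fold changes exceeded those of the 8 tested regulators. Those of Asns and Cebpb did not.

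The lists nearest to the 9 genes had 0 genes called by edgeR in the genotype comparison with Cre. Without wild-type Cre replicate 2 and the libraries of title number 18405, where 1285 genes were called in all, these lists gave 1 call among kinase regulators, 2 among eIF2 and eIF2B genes, 1 around the phosphatase, 3 in cap binding and 1 in the mTORC1 axis. Of 14 activators, inhibitors and partners of the kinases, 0 had an unadjusted p under 0.05 and DESeq2 called 0, with a median log2 fold change of -0.0. Among them were Dnajc3, an inhibitor of PKR and PERK, at 0.34 (SE 0.179), and Oma1, the mitochondrial protease upstream of HRI, at -0.57 (SE 0.287). Of 14 subunits of eIF2, its exchange factor eIF2B and related factors, 4 had an unadjusted p under 0.05, 2 in each direction, and DESeq2 called 0. Denr and Eif2b4 were at -0.64 (SE 0.232) and -0.75 (SE 0.321), and Eif5 at 0.55 (SE 0.201). Of 8 genes around the phosphatase, 2 had an unadjusted p under 0.05, both lower, and DESeq2 called 0. They were Actg1, a cytoplasmic actin, at -0.52 (SE 0.178), and Ppp1r1a, an inhibitor of protein phosphatase 1, at -0.87 (SE 0.325). The catalytic subunit that binds CReP and GADD34 did not pass in any of its forms, with Ppp1cb at 0.35 (SE 0.175) and an adjusted p of 0.3129.

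Of 15 tested genes of cap binding and the eIF4F complex, 4 had an unadjusted p under 0.05, 3 of them higher, and DESeq2 called 1, Mknk1, a kinase of eIF4E. Mknk1 averaged 2.11 CPM (SD 0.755) over the 5 tagged wild-type and 5.08 CPM (SD 1.59) over the 6 tagged mutant libraries, with a log2 fold change of 1.23 (SE 0.303) and an adjusted p of 0.09391 by edgeR. Of 23 tested genes of the mTORC1 axis, 2 had an unadjusted p under 0.05, 1 in each direction, and DESeq2 called 0. Depdc5, a subunit of a complex that restrains mTORC1, was at 0.53 (SE 0.212), and Rps6kb1, the S6 kinase, at -0.50 (SE 0.206). Glucocorticoid and hypoxia targets, both known inducing signals of Ddit4, had 0 of 9 and 0 of 12 called by edgeR, with 2 of each at an unadjusted p under 0.05, 1 in each direction. DESeq2 called 0 glucocorticoid targets and 2 hypoxia targets, Vegfa at 1.03 (SE 0.227 by edgeR) and Bnip3 at -0.59 (SE 0.179 by edgeR). Of the interferon-induced genes 0 of 8 were called by edgeR and 0 by DESeq2, with 3 at an unadjusted p under 0.05.

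**Figure D5:**
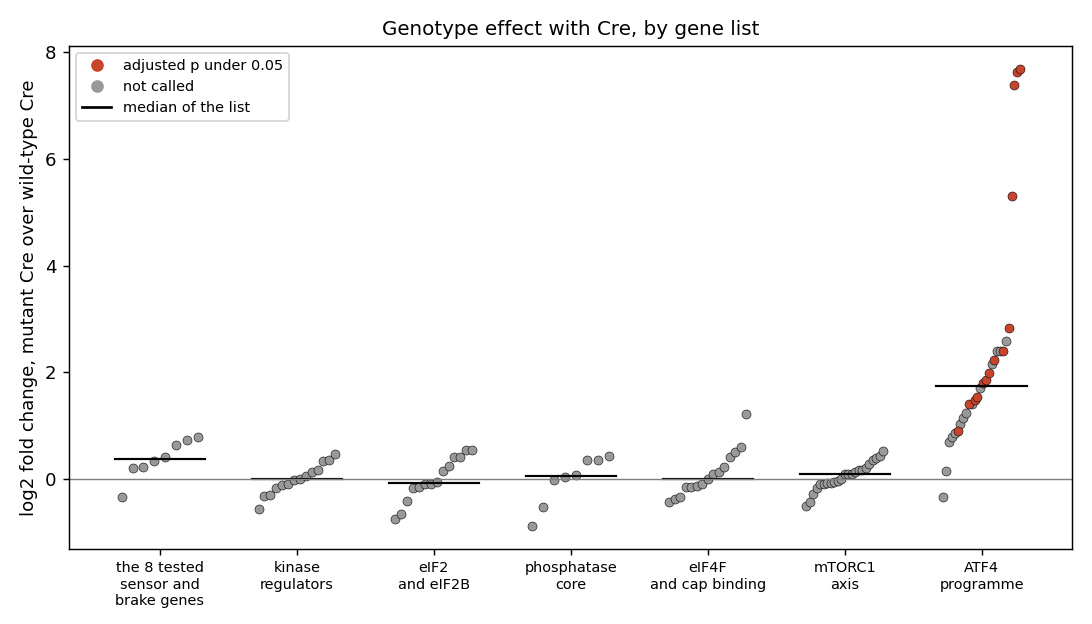
Log2 fold change of mutant Cre over wild-type Cre for the 8 tested sensor and brake genes and for 6 gene lists, as fitted by edgeR. Each point is 1 gene, red where the adjusted p was under 0.05, and the black line is the median of the list. The ATF4 programme has a median of 1.75 and holds all 14 of the called genes shown, and the 8 regulators have a median of 0.38.

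Between precipitates with and without Cre, calls were frequent across the transcriptome, and counts in the lists around the regulators are read against the wild-type shares of 20.0% of genes called higher and 25.9% called lower. These genes were chosen after their values were seen. Of the 14 eIF2 and eIF2B genes, 7 were called higher and 0 lower with Cre in wild type by edgeR, with a median log2 fold change of 1.12 beside -0.14 for all genes tested. The counts of the other lists below lie nearer to those shares. Eif2s1, the gene of eIF2alpha that all 4 kinases phosphorylate, rose by 1.14 (SE 0.337, adjusted p = 0.01118). Of the 8 genes around the phosphatase, 3 were called higher, the actin gene Actg1 among them, and 1 lower. Ppp1ca, a catalytic subunit of protein phosphatase 1, rose by 1.22 (adjusted p = 0.006157 by edgeR), and Crebrf fell by 1.98 (adjusted p = 0.004598). Within the mTORC1 axis of wild type, 4 of 24 were called higher and 3 lower, with Rheb, the activator of mTORC1, higher by 1.42 and Deptor, an inhibitor, lower by 2.31 on the log2 scale. For the kinase regulators 4 of 14 were called higher in wild type, among them Prkra, the protein activator of PKR, at 1.60 (adjusted p = 0.03749), where PKR itself was lower. With library totals only, these directions held. Called there were 0 eIF2 and eIF2B genes, 1 gene around the phosphatase, 0 mTORC1 genes and 1 kinase regulator. In mutants, 3 of 13 eIF2 and eIF2B genes were called higher, and Eif2s1 was at 0.34 (adjusted p = 0.5508 by edgeR).

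The profiles of the tested regulators over the 23 libraries resembled different genes. Likeness was Pearson's r of log2 CPM over 23 libraries of 4 groups, among 11203 genes, and is a description, since libraries share group and depth. Eif2ak2 was most like Colec12 (0.952), Txndc16 (0.948) and Mier1 (0.945), and Ppp1r15b most like Efs (0.902), Ssr3 (0.902) and Peli1 (0.88), all with log2 fold changes of Cre over no Cre between -4.78 and -1.76 in wild type. Eif4ebp2 was most like Spopl (0.942), Ankzf1 (0.886) and Tmem106b (0.881), and Eif2ak1 most like Nfic (0.902), Arfgef1 (0.897) and Atg12 (0.888). Ddit4 was most like the ATF4 target Slc3a2 (0.762), then Fam101b (0.71) and Nsmce4a (0.705). Ppp1r15a was most like Mdfic (0.829), Crtc2 (0.826) and Mybbp1a (0.808), and Eif2ak4 most like Mpg (0.869), Pick1 (0.811) and Gins2 (0.809). Eif2ak3 was most like 3 Y-linked genes, Ddx3y (0.726), Kdm5d (0.715) and Uty (0.703). Among the 8 regulators themselves the highest r was 0.59, between Eif2ak2 and Ppp1r15b, and the lowest was -0.66, between Eif2ak1 and Ppp1r15a.

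Libraries split clearly by Ddx3y, at 7.97 to 22 CPM in 11 libraries and at 0.0877 CPM or less in 12. Eif2ak3 was at 3.62 and 5.95 CPM in the 2 wild-type Cre libraries with Ddx3y and at 2.31 to 3.68 CPM in the 3 without. In mutant Cre libraries it was at 4.35 to 6.06 CPM (n = 3) and 3.51 to 4.39 CPM (n = 3), in wild-type no-Cre at 3.91 to 6.38 and 2.41 to 3.20 CPM (n = 3 each), and in mutant no-Cre at 3.66 to 5.59 and 2.35 to 3.99 CPM (n = 3 each). The median was higher with Ddx3y in all 4 groups, and the ranges did not overlap in 1 of them, the wild-type no-Cre group. This split was looked at after the likeness had been seen. With Ddx3y as a covariate the genotype effect of Eif2ak3 with Cre was 0.32 on the log2 scale, against 0.34 without.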

How the data were processed

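RNA from anti-haemagglutinin precipitates of spinal cord was sequenced in 23 libraries of 4 groups. Reads were aligned with Bowtie2 2.2.0 and quantified with RSEM 1.2.12, per the submitters' processing notes. The genome build is not given in the sources used here. The deposited tables, per the file headers, hold expected counts, which are not normalised, TPM and effective lengths. Expected counts were rounded and tested by quasi-likelihood in edgeR 4.0.16 (R 4.3.3), on TMM-scaled libraries. Genes had to pass filterByExpr at 10 counts, with 15 in total, and an adjusted p (Benjamini-Hochberg) under 0.05 was a call. Each fit held only the groups it compared, and all 23 libraries entered the test of the difference. CPM uses TMM-scaled totals of all 23 libraries. Log2 CPM for likeness used a prior count of 2. The deposited TPM, scaled to each library by the authors' software, was used only for shares within the kinases and the 4E-BP genes. The scripts were tested on simulated data. Positions come from GENCODE M21 (GRCm38), in which 37607 of 38924 IDs matched. Replicates were compared in pairs by chi-square, and the lowest value per degree of freedom, 9.15, leaves no pair alike within counting error.

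The 9 genes and the gene lists were chosen with earlier results of these data known. Besides the 9, genes were named by rule: the 3 most like each by Pearson's r among genes with a mean of at least 1 CPM, the genes of each list called in the genotype comparison with Cre or the 3 with the smallest p, and Atf4, Ddit3 and Chat. Some genes that this rule names are left out of the text. List genes named for the Cre comparisons, and the Ddx3y split, were chosen after their values were seen. Alternatives were RLE size factors, library totals only, DESeq2 1.42.0, no filter, no ribosomal RNA genes, the title number as a block, all 23 libraries in one fit, leaving out wild-type Cre replicate 2 and the title number 18405 libraries (the Cre libraries highest in oligodendrocyte markers, and mutant no-Cre replicate 2), leaving out each library, and a sex-linked covariate added after the data were seen. Gene lists were recounted, also after the data were seen, with both scalings and without those libraries.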

Additional observations from a re-analysis of the deposited data

Results flagged for a closer look

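Of 36 combinations of a gene and a group examined, 1 held a library far from the others. Ppp1r15a was at 16.4 CPM in mutant no-Cre replicate 5, where the other 5 mutant no-Cre libraries were at 1.26 to 3.88 CPM, so that the gap took 0.827 of the range. How often such a gap arises by chance was not tested. That library had 594381 counts outside ribosomal RNA, the fewest of the 23. Without it, the log2 fold change of Ppp1r15a between genotypes without Cre was 0.28 in place of 1.11, and that between Cre and no Cre in mutants was -0.04 in place of -1.004.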

How the results depend on the processing

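No paired analysis was possible because the replicate numbers follow the order of the samples and pair no libraries. With Cre, 41 genes differed between genotypes, but 17 with library totals only, 413 with DESeq2, 89 with no filter, 19 with the title number as a block, 11 with all 23 libraries in one fit, 1285 without wild-type Cre replicate 2 and the title number 18405 libraries, and 10 to 1057 without 1 library (10 without wild-type Cre replicate 3, 1057 without wild-type Cre replicate 2, and 16 to 22 without wild-type Cre replicates 1, 4 or 5 or mutant Cre replicates 3 or 5). Of the regulators, 1 was called with DESeq2 and 1 without wild-type Cre replicate 2 and the 18405 libraries, Ppp1r15b in each case, and 0 to 1 without 1 library. Without Cre, 31 genes were called with no filter and 0 under every other setting run, each library left out included. With Cre against no Cre, the count in wild type was 909 with library totals only and 4878 to 6474 without 1 library, and that in mutants was 8175 with no filter and 3451 to 4990 without 1 library. Of the regulators, 0 were called in either genotype with library totals only, and 2 in mutants with the title number as a block (Eif4ebp2 and Ddit4, from 1 no-Cre library against 2 with Cre, whose spread the lone library is assumed to share), while leaving out 1 library left 2 and 1. For the difference of the genotype effects, 3 genes became 1 with library totals only, 42 with DESeq2, 9 with no filter and 1 to 8 without 1 library.

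Directions also turned, as follows. With library totals only, Eif2ak4 turned to 0.522 (genotype, Cre), Eif2ak2, Ppp1r15a, Eif4ebp2 and Ddit4 to -0.137, -0.323, -0.124 and -0.571 (genotype, no Cre), Eif2ak3 to 0.016 (Cre, wild type), and Eif2ak4, Ppp1r15a, Ppp1r15b, Eif4ebp2 and Ddit4 to 0.485, 1.016, 0.692, 0.582 and 1.515 (Cre, mutants), where the median of all genes moved to 1.13, and Ppp1r15a to 1.821 (difference). Eif2ak3 without Cre turned to 0.003 with RLE size factors, 0.024 with DESeq2, 0.258 with the block, 0.022 in one fit and 0.007 with the sex-linked covariate. With the block, Ddit4 turned to -0.039 (genotype, no Cre), Eif2ak1, Eif2ak3 and Ddit4 to -0.196, -0.191 and 1.309 (Cre, mutants), and Ppp1r15a and Eif4ebp2 to 0.179 and -0.411 (difference). Eif4ebp2 turned to -0.044 without mutant no-Cre replicate 2, the 18405 library of that comparison (genotype, no Cre), and to -0.011 with RLE size factors and -0.019 with DESeq2 (difference). In wild type, the Cre effect of Eif2ak3 turned to 0.062 with no filter, 0.042 with the sex-linked covariate and 0.002 without wild-type Cre replicate 2, where that of Eif2ak1 turned to -0.056. With 1 library left out, Eif2ak3 ranged from -0.136 to 0.186 and Eif4ebp2 from -0.135 to 0.317 (genotype, no Cre), Eif2ak1 from -0.056 to 0.255 and Eif2ak3 from -0.242 to 0.137 (Cre, wild type), Ddit4 from -0.397 to 0.104 (Cre, mutants), and Eif4ebp2 from -0.11 to 0.335 and Ppp1r15a from -0.576 to 0.451 (difference). The causes were not tested. The block left 8 libraries in the genotype comparison with Cre, and only number 18405 or 20301, with no block term, in the Cre comparison of mutants and the genotype comparison without Cre. Low counts limit the precision for Eif4ebp1 and Ppp1r15a.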
